A study of Homo sapiens with 4 samples.

Results

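The 10 genes POLA1, POLA2, PRIM1, PRIM2, POLD1, POLD2, POLD3, POLD4, POLE and POLE2 encode subunits of the 3 polymerase complexes that copy chromosomal DNA. They were chosen by name, and all 10 had a row among the 6828 genes listed in the deposited table and were among the 6812 genes tested. RNA came from A549, a human lung adenocarcinoma cell line with epithelial character, 72 h after lentiviral delivery of an shRNA. One group received the control hairpin (shctrl) and the other a hairpin against the long noncoding RNA USP2-AS1 (shUSP2-AS1), with 2 biological replicates per group. Both groups carried the lentiviral vector and no uninfected cells were sequenced. Both shUSP2-AS1 libraries carry the same hairpin name, sh216, so an effect of that hairpin and the loss of USP2-AS1 cannot be told apart. The sources used here do not say which of the study's USP2-AS1 hairpins it was.

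Replication forks need 3 B-family polymerases. Polymerase alpha, bound to primase, lays down a short RNA primer and extends it with a stretch of DNA. Polymerase epsilon then copies most of the leading strand and polymerase delta most of the lagging strand, where it also fills in behind each primer. Genes for these subunits are typically expressed most strongly in proliferating cells around the start of S phase, and E2F transcription factors are known regulators of many of them.

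In shUSP2-AS1 cells, 9 of the 10 genes were lower than in shctrl cells and POLD4 alone was higher. All 4 genes of the polymerase alpha-primase complex fell by at least 1 on the log2 scale. So did POLE and POLE2, the 2 polymerase epsilon genes among the 10. The epsilon subunit genes POLE3 and POLE4 were not among the 10 and fell less, with log2 fold changes of -0.99 and -0.43. The polymerase delta genes did not move together. Its catalytic gene POLD1 fell to 26.6% of the shctrl mean, POLD2 fell to 66.8%, POLD3 fell to 50.5% and POLD4 rose to 205% of it.

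The values are normalized read counts, that is, reads per gene divided by a size factor of the library. The 4 libraries had between 10772788 and 14120472 reads on the listed genes. Every listed gene had an adjusted p-value of less than 0.05 in the authors' own comparison, so genes without a significant change are not in the table, and adjustment over these genes alone gives smaller p-values than adjustment over the whole transcriptome. A gene was called when its limma adjusted p was under 0.05 and its level had changed by 1 or more, in either direction, on the log2 scale. USP2-AS1 itself was covered by 24 and 22 reads in shctrl and by 2 and 7 in shUSP2-AS1. Of 10 epithelial and A549 markers, 7 were listed, with summed values of 401553 and 381446 in shctrl and 359459 and 366166 in shUSP2-AS1, and EPCAM, CDH1 and AKR1C1 had no row. Within this sum, KRT7, KRT8, KRT18 and ALDH3A1 had lower values in both shUSP2-AS1 libraries than in both shctrl libraries (KRT18 30473 and 29565 against 14145 and 14811), and KRT19, AKR1B10 and ALDH1A1 had higher ones (ALDH1A1 123010 and 118665 against 159180 and 162179). Of 6 fibroblast markers, COL1A1 and LUM were listed, with summed values of 263 and 295 in shctrl and 555 and 634 in shUSP2-AS1. Their part in the results was not tested. None of 4 leukocyte and 4 endothelial markers had a row.

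Promoter sequences were examined for description only. E2F1, which binds the E2F motif searched here, had 1280 and 1241 in shctrl and 276 and 304 in shUSP2-AS1. MYC, which encodes c-Myc, had 2965 and 2928 in shctrl and 2104 and 2168 in shUSP2-AS1. The part of either gene in the results was not tested. RefSeq promoter windows on GRCh38.p14, from 250 bases before to 50 bases after a gene start, were at hand for 9 of the 10 genes, in 12 windows. POLD3 had no window. The E2F motif, searched on both strands as TTTCCCGC, TTTCGCGC, TTTGCCGC or TTTGGCGC, was found once each in POLA1, POLA2, POLE and POLE2, and in 3.31% of all 35116 windows of this length. The 4 sites are shown with 11 bases on each side, 5′ to 3′ on the strand that reads the motif, with the motif in capitals.
POLA1, minus strand, chrX:24693770-24693799: gcggacgcgcgTTTGGCGCcctgtgatgac
POLA2, plus strand, chr11:65261898-65261927: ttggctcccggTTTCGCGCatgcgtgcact
POLE, plus strand, chr12:132687342-132687371: caggggagaaaTTTGGCGCgctcccaccca
POLE2, plus strand, chr14:49688201-49688230: catatttgcgaTTTGGCGCcaccgccgcag

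Of these sites, 3 share the letters TTTGGCGC and the POLA2 site reads TTTCGCGC. The matches began 137 bases before the RefSeq start that set the window in POLA1, 53 in POLA2, 18 in POLE and 5 in POLE2. These starts differ from the gene limits given below, within which the POLE and POLE2 sites lie. The log2 fold changes of these 4 genes lay between -1.98 and -1.58. The 5 genes whose windows lacked the motif ranged from -2.06 for PRIM1 to 1.03 for POLD4, so the gene with the deepest fall and the gene that rose were both among those without a match. The cell-cycle element TTTGAA, in 15.2% of all windows, and the E-box CACGTG, the sequence that c-Myc binds, in 7.26%, matched no window of the 9 genes. CCAAT, in 34.6% of all windows, was found for POLA1, PRIM1, POLD2, POLD4 and POLE. The GC box GGGCGG, in 44.95%, was found for POLA1, POLD1, POLD2, POLD4, POLE and POLE2. POLD4 had the most matches of both in a single window, with 3 of CCAAT and 4 of the GC box. No E2F match overlapped a match of another motif. A match describes the letters only, and binding was not measured.

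Of the 10 genes, 7 were called lower, against 13.5% of all genes tested, and 1 was called higher, against 16.1%. With no threshold on the fold change, 9 passed the adjusted p-value as lower, against 49.4% of all genes tested. Of the 6812 genes tested, 3362 passed in this way as lower and 3449 as higher. Such counts, here and below, therefore mainly give the direction of change. The values of the groups did not overlap for any of the 10 genes, but nearly every listed gene shares this property, since 49.3% of the genes tested were apart and lower and 50.6% were apart and higher. The median log2 fold change was -1.62 over the 10 genes and 0.19 over all genes tested. The second median lies near 0, where the table holds few genes, and so does not describe a typical gene. It shifted by -0.33 when at least 10 in every library was required, while the median of the 10 genes stayed at -1.62. RNA was extracted in bulk, so fewer cells in S phase and less RNA per cell cannot be told apart.

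**Figure D1:**
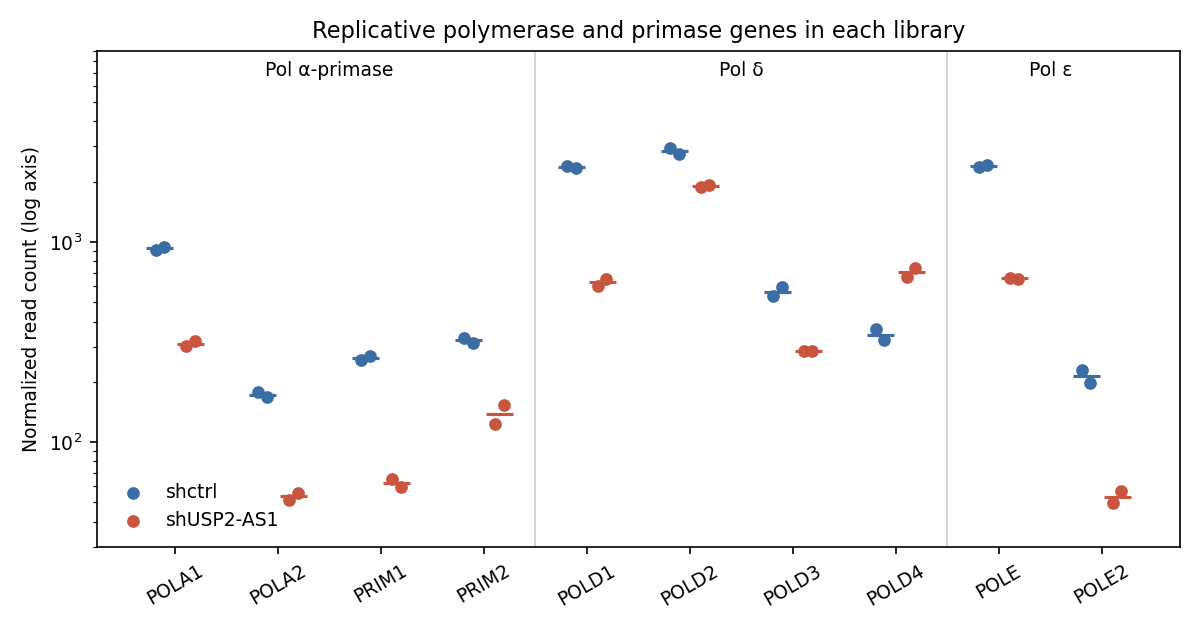
Normalized read counts (log axis) of the 10 genes in each of the 2 shctrl (blue) and 2 shUSP2-AS1 (red) libraries, with horizontal bars at the group means. The red points lie below the blue points for 9 genes and above them for POLD4, which had 365 and 323 in shctrl and 669 and 742 in shUSP2-AS1.

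POLA1 (ENSG00000101868, plus strand of chromosome X, 24693909 to 24996986 on GRCh38) encodes the catalytic subunit of polymerase alpha. Its normalized read count was 914 and 942 in shctrl and 302 and 319 in shUSP2-AS1. Even the higher shUSP2-AS1 library was 2.87-fold below the lower shctrl library. On the log2 scale the change was -1.58 ± 0.08 (SE), and limma gave an adjusted p of 1.33e-11.

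POLA2 (ENSG00000014138, plus strand of chromosome 11, 65261920 to 65305589) encodes the regulatory B subunit that tethers the catalytic subunit. It had 178 and 167 in shctrl and 51.5 and 55.5 in shUSP2-AS1. This was the least sequenced gene of the complex, with 49 to 184 reads per library, and the groups were still well apart. In limma the log2 change was -1.67 ± 0.18 (SE), at an adjusted p of 1.04e-07. In GENCODE release 44, 16.8% of its exonic bases are shared with an unnamed protein-coding gene that had no row.

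PRIM1 (ENSG00000198056, minus strand of chromosome 12, 56731296 to 56752374) encodes the catalytic primase subunit, the one that synthesizes the RNA primer. It had 257 and 269 in shctrl and 65.2 and 59.9 in shUSP2-AS1. This was the lowest log2 fold change of the 10 genes, at -2.06 (SE 0.15, limma adjusted p = 1.27e-09), and 210 of all genes tested had a lower one. The remaining level was 23.8% of the shctrl mean. Of its exonic bases in GENCODE release 44, 362 (10.9%) are shared with an unnamed protein-coding gene, 139 with NACA and 132 with HSD17B6, of which HSD17B6 alone had a row.

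PRIM2 (ENSG00000146143, plus strand of chromosome 6, 57314805 to 57646850) encodes the large primase subunit, which carries an iron-sulfur cluster and helps to hand the primer to polymerase alpha. It had 332 and 313 in shctrl and 123 and 152 in shUSP2-AS1. Both shUSP2-AS1 libraries were below both shctrl libraries, but they also differed more from each other (0.31 on the log2 scale) than the replicates of any other of the 10 genes. On the log2 scale the change was -1.23 ± 0.13 (SE), and limma gave an adjusted p of 1.53e-07. Tested against a fold change of 2 rather than 0, it did not pass (adjusted p = 0.249 from limma). The annotation also holds PRIM2BP, a pseudogene of this gene on the same chromosome, and reads that match both could not be told apart here.

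POLD1 (ENSG00000062822, plus strand of chromosome 19, 50384204 to 50418018) encodes the catalytic subunit of polymerase delta, with its proofreading exonuclease. Its normalized read count was 2379 and 2348 in shctrl and 603 and 654 in shUSP2-AS1. The gap between the groups was many times the difference between replicates. In limma the log2 change was -1.91 ± 0.07 (SE), at an adjusted p of 5.11e-14, with a 95% confidence interval from -2.05 to -1.77. An unnamed protein-coding gene without a row shares 8.63% of its exonic bases.

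POLD2 (ENSG00000106628, minus strand of chromosome 7, 44114681 to 44124358) encodes the B subunit of polymerase delta, which binds the catalytic subunit and the other 2 accessory subunits. It had 2943 and 2738 in shctrl and 1883 and 1911 in shUSP2-AS1. The decrease was the smallest among the 9 genes that were lower, with a log2 fold change of -0.58 (SE 0.06, limma adjusted p = 3.43e-08). It passed the adjusted p-value but not the fold change threshold.

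POLD3 (ENSG00000077514, plus strand of chromosome 11, 74493851 to 74669117) encodes an accessory subunit with a binding site for PCNA, the sliding clamp. It had 534 and 592 in shctrl and 285 and 283 in shUSP2-AS1. The log2 fold change of -0.98 (SE 0.10, limma adjusted p = 4.01e-08) lay just short of the threshold. It reached -1.06 without shctrl replicate 1 and was then called.

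POLD4 (ENSG00000175482, minus strand of chromosome 11, 67350772 to 67356972) encodes the smallest subunit of polymerase delta, which is known to be degraded after DNA damage. Its normalized read count was 365 and 323 in shctrl and 669 and 742 in shUSP2-AS1, from 294 to 843 reads. Both shUSP2-AS1 libraries were above both shctrl libraries, and the lower of them was 1.83-fold above the higher shctrl library. On the log2 scale the change was 1.03 ± 0.09 (SE), and limma gave an adjusted p of 1.55e-08, with a 95% confidence interval from 0.84 to 1.23. The call rested on a value close to the threshold, as the log2 fold change was 0.95 without shctrl replicate 2, 0.96 without shUSP2-AS1 replicate 2, and 0.92 with RLE scaling, which shifted the median of all genes tested by -0.12. It was above 0 in each of these. In GENCODE release 44, 21.3% of the exonic bases of POLD4 are shared with an unnamed protein-coding gene, which had no row, and reads in the shared part could belong to either.

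POLE (ENSG00000177084, minus strand of chromosome 12, 132623753 to 132687376) encodes the catalytic subunit of polymerase epsilon. It had 2374 and 2410 in shctrl and 656 in both shUSP2-AS1 libraries. In limma the log2 change was -1.86 ± 0.06 (SE), at an adjusted p of 3.23e-14, the lowest adjusted p-value of the 10 genes.

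POLE2 (ENSG00000100479, minus strand of chromosome 14, 49643555 to 49688422) encodes the B subunit of polymerase epsilon. It had 230 and 198 in shctrl and 49.4 and 57.2 in shUSP2-AS1, on 47 to 238 reads. On the log2 scale the replicates of each group were further apart than those of POLE, and the groups remained separate. On the log2 scale the change was -1.98 ± 0.17 (SE), and limma gave an adjusted p of 9.71e-09. This put POLE and POLE2 at about the same decrease, although POLE had over 10 times the reads of POLE2 in every library.

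**Figure D2:**
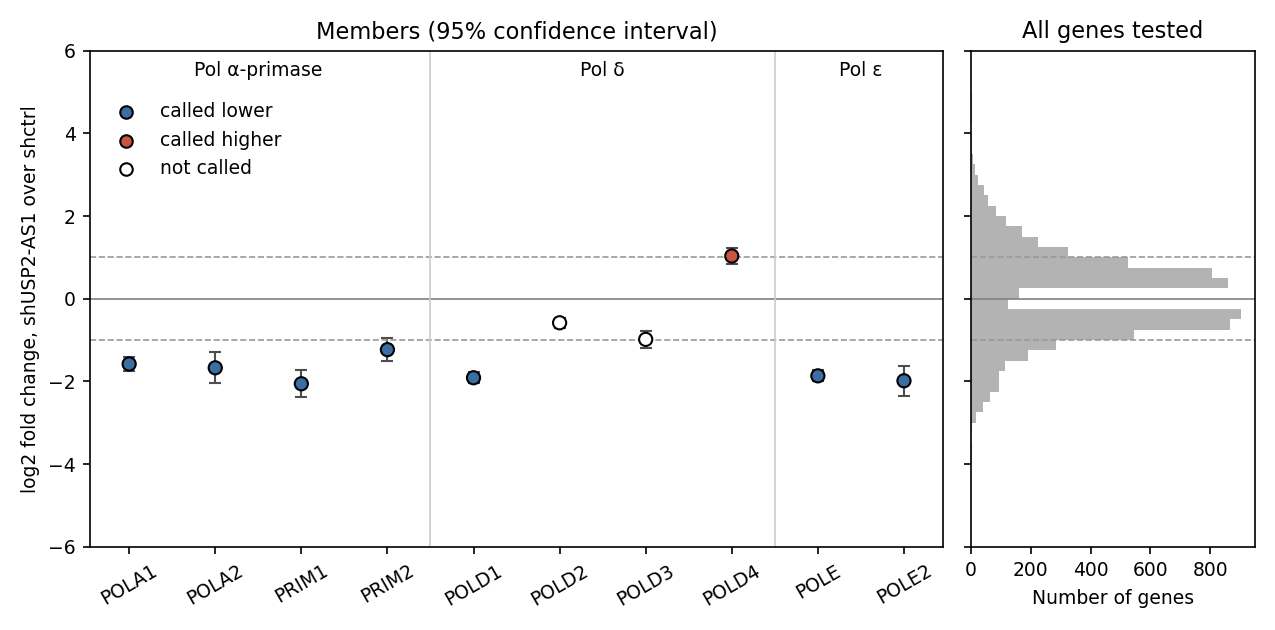
Left, log2 fold change of shUSP2-AS1 over shctrl for each of the 10 genes with its 95% confidence interval from limma, filled blue where called lower, red where called higher and white where not called. Right, number of genes at each log2 fold change among the 6812 genes tested. The dashed lines mark log2 fold changes of -1 and 1. The 9 lower genes lie between -2.06 and -0.58, and POLD4 lies at 1.03. The gap around 0 at right reflects that the table lists only genes with a significant change.

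Dividing by gene length allowed levels to be compared between genes. In shctrl cells POLD2 had the highest level per length, with 769 ± 39.4 normalized read counts per kilobase (SD, n = 2), followed by POLD1 with 479 ± 4.37. POLE and POLA1 came next, with 142 ± 1.51 and 140 ± 2.95, and did not differ beyond their spread. POLD4 and POLD3 likewise could not be ordered, with 113 ± 9.76 and 102 ± 7.46. PRIM1 (92.2 ± 3.03), POLE2 (72.4 ± 7.70), PRIM2 (57.1 ± 2.40) and POLA2 (31.0 ± 1.37) followed in this order. In polymerases alpha and epsilon the catalytic gene was thus above its B subunit gene, while in polymerase delta the B subunit gene POLD2 was above POLD1.

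In shUSP2-AS1 cells the order changed both within and between complexes. POLD2 stayed highest with 514 ± 5.36 per kilobase (SD, n = 2), but POLD4 rose to the second place with 231 ± 17.0, above POLD1 with 127 ± 7.39. POLD3 had 51.7 ± 0.19, POLA1 45.5 and 48.0 in its 2 libraries, and POLE 39.1 ± 0.01. PRIM2 (24.4 ± 3.66) and PRIM1 (21.9 ± 1.32) did not differ beyond their spread. The lowest were POLE2, with 16.7 and 19.4 in the 2 libraries, and POLA2, with 9.25 and 9.96. POLE thus passed from above POLD4 and POLD3 to below both, and PRIM2 from below POLE2 to above it. These places depend on the length used. With the length of the canonical transcript, POLE stood apart from POLA1 in shctrl (306 ± 3.25 and 169 ± 3.57), and in shUSP2-AS1 POLE (83.9 ± 0.02) was above POLD3 (75.0 ± 0.28) and POLA1 (56.5 ± 2.18). With this length, PRIM2 was already above POLE2 in shctrl (140 ± 5.89 and 126 ± 13.4). The rise of POLD4 to the place behind POLD2 held with both lengths. The span between the highest and the lowest gene widened from 24.8-fold to 53.4-fold.

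**Figure D3:**
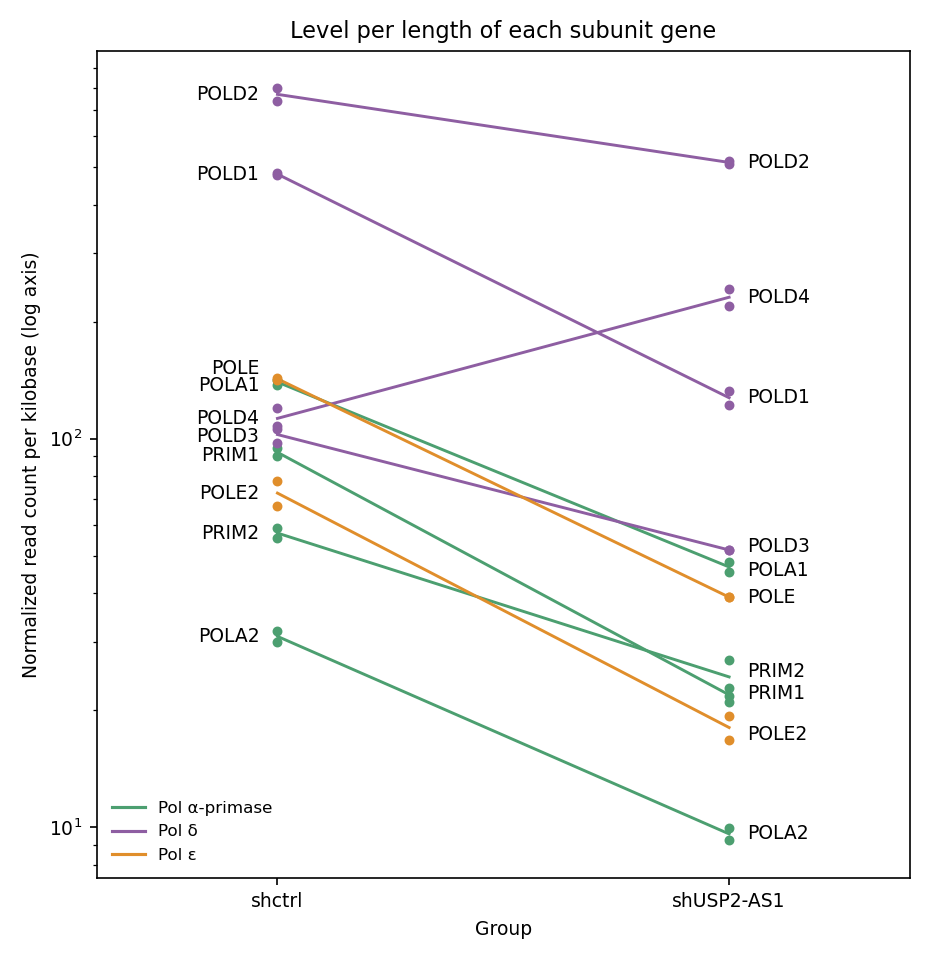
Normalized read count per kilobase of gene length (log axis) in shctrl and shUSP2-AS1, with a point for each of the 2 libraries per group and lines joining the group means, coloured by complex. The lines of POLD4 and POLD1 cross, from 113 and 479 per kilobase in shctrl to 231 and 127 in shUSP2-AS1.

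Ratios between subunits of the same complex were taken within each library, so that library scaling cancels. With 2 libraries against 2, an exact permutation test cannot give a two-sided p below 0.333, and 6 of the 7 ratios reached that value without overlap between the groups. The ratio of POLD4 to POLD1 per kilobase was -2.01 and -2.17 on the log2 scale in shctrl and 0.84 and 0.87 in shUSP2-AS1. It rose from 0.235 to 1.81, a 7.72-fold difference, in which the fall of POLD1 had the larger part. The ratio of POLD2 to POLD1 was 0.72 and 0.64 in shctrl and 2.06 and 1.96 in shUSP2-AS1 on the log2 scale, a 2.52-fold difference. For POLD3 to POLD1 the log2 ratio was -2.31 and -2.14 in shctrl and -1.24 and -1.36 in shUSP2-AS1, a 1.90-fold difference. All 3 accessory genes of polymerase delta were therefore higher relative to the catalytic gene in both shUSP2-AS1 libraries.

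For polymerases epsilon and alpha, the ratio of the B subunit gene to the catalytic gene moved less. Ratios of the epsilon subunit genes POLE3 and POLE4 to POLE were not taken. Their log2 fold changes, -0.99 and -0.43, were smaller decreases than the -1.86 of POLE. The log2 ratio of POLE2 to POLE was -0.86 and -1.10 in shctrl and -1.22 and -1.01 in shUSP2-AS1, so that the groups overlapped (difference -0.14, exact permutation p = 0.667, two-sided). That of POLA2 to POLA1 was -2.11 and -2.24 in shctrl and -2.30 and -2.27 in shUSP2-AS1, and its difference of -0.11 was smaller than the counting error of a single library, at least 0.12. The primase genes shifted further. PRIM1 to POLA1 moved from -0.61 and -0.59 to -0.99 and -1.19. PRIM1 to PRIM2 moved from 0.61 and 0.77 to 0.07 and -0.36, a difference of -0.84 that lay between -1.05 and -0.62 on leaving out single libraries. The catalytic primase gene was thus above the large subunit gene in shctrl, and in shUSP2-AS1 the 2 libraries lay on either side of equality. With the canonical transcript length, PRIM1 had 45.8 and 42.1 per kilobase in shUSP2-AS1 and PRIM2 53.4 and 66.1, so that both libraries lay below equality.

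**Figure D4:**
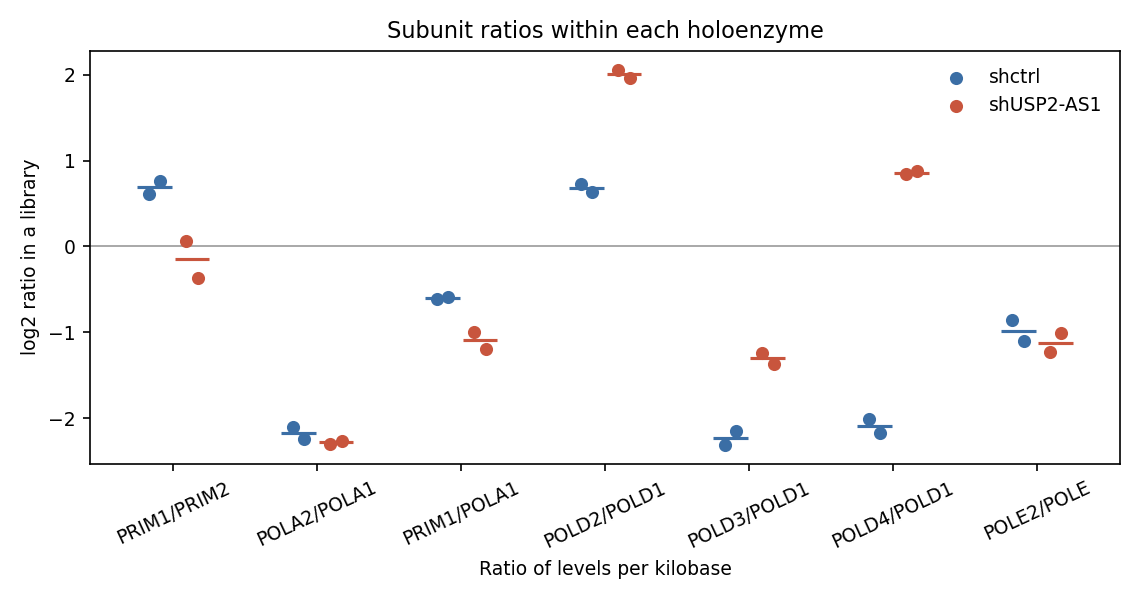
Log2 ratio of the levels per kilobase of 2 genes of the same complex in each library, for 2 shctrl (blue) and 2 shUSP2-AS1 (red) libraries, with bars at the group means. The 3 ratios over POLD1 are higher in shUSP2-AS1, by 0.93 to 2.95, and the red and blue points of POLE2/POLE overlap.

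Genes that work beside the polymerases were taken from a list of 42 replication fork partners, of which 36 were tested and 6 had no row. All 36 had a log2 fold change below 0, with a median of -1.85, and 29 (80.6%) were called lower, against 13.5% of all genes tested, and 0 higher, against 16.1%. Without the fold change threshold, 36 passed the adjusted p-value in limma as lower, against 49.4% of all genes tested, and 0 as higher. The 3 lowest were WDHD1, which couples polymerase alpha to the replicative helicase, at -3.19, CDC45, a part of that helicase, at -3.02, and MCM5, at -2.72. The 3 highest were RPA3, of the single-strand binding complex, at -0.84, RFC1, of the clamp loader, at -0.60, and POLE4 at -0.43. The 9 polymerase genes that were lower, from -2.06 to -0.58, fell within the range of this list, and POLD4 lay outside it. The upper end of that range was POLE4, itself a polymerase epsilon subunit gene. POLD2, at -0.58, lay above the next gene of the list, RFC1.

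The remaining subunits of polymerase epsilon are POLE3 and POLE4, histone-fold proteins that also act outside the polymerase. POLE3 went from 1490 ± 12.2 (SD, n = 2) to 753 ± 56.2, a log2 fold change of -0.99 (SE 0.07, limma adjusted p = 5.73e-10). POLE4 went from 781 ± 2.58 to 582 ± 49.7, a log2 fold change of -0.43 (SE 0.08, limma adjusted p = 9.27e-05). Neither was called. Both values were smaller decreases than those of POLE and POLE2, though the difference between subunits was not tested. DSCC1 and CHTF18, of the clamp loader that binds polymerase epsilon, were called lower with -1.92 and -1.78. POLDIP2 and POLDIP3, first described as partners of polymerase delta, were called lower with -1.82 and -1.71. PCNA, the clamp used by polymerases delta and epsilon, had -1.01.

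Genes of DNA polymerases outside the bulk fork did not all move one way. Their list of 17 also held POLRMT, the mitochondrial RNA polymerase. Of the 17, 7 were tested. The other 10 had no row, and the table lists only genes with a significant change. Of the 7, 2 (28.6%) were called lower, against 13.5% of all genes tested, and 0 higher, against 16.1%. By the limma adjusted p-value alone, 5 passed as lower, against 49.4% of all genes tested. As higher, 2 passed, against 3449 of the 6812 genes tested. The median log2 fold change of the 7 was POLRMT's own -0.49, and that of the 6 others was -0.58. The 3 lowest were TERT, the telomerase catalytic subunit, at -3.58, POLQ, the end-joining polymerase theta, at -2.79, and MAD2L2 at -0.77. Higher values were found for REV3L at 0.60 (adjusted p = 3.99e-06 from limma) and for the translesion polymerase POLI at 0.48 (adjusted p = 0.00073 from limma), neither past the fold change threshold. REV1, a translesion scaffold, was at -0.39. REV3L and MAD2L2 form the translesion polymerase zeta, which shares POLD2 and POLD3 with polymerase delta, and its catalytic gene REV3L was thus higher where POLD2, POLD3 and MAD2L2 were lower.

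Subunits of nuclear RNA polymerases served as a comparison. Of 31 on the list, 12 had no row and 19 were tested, all 19 below 0, with a median of -0.57. Of these, 4 (21.1%) were called lower, against 13.5% of all genes tested, and 0 were called higher, against 16.1%. By the limma adjusted p-value alone 19 passed as lower, against 49.4% of all genes tested, and 0 as higher. The lowest were POLR3K at -1.36, POLR3G at -1.35 and CD3EAP at -1.35, and the highest POLR2D at -0.41, POLR2E at -0.30 and POLR2L at -0.18.

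**Figure D5:**
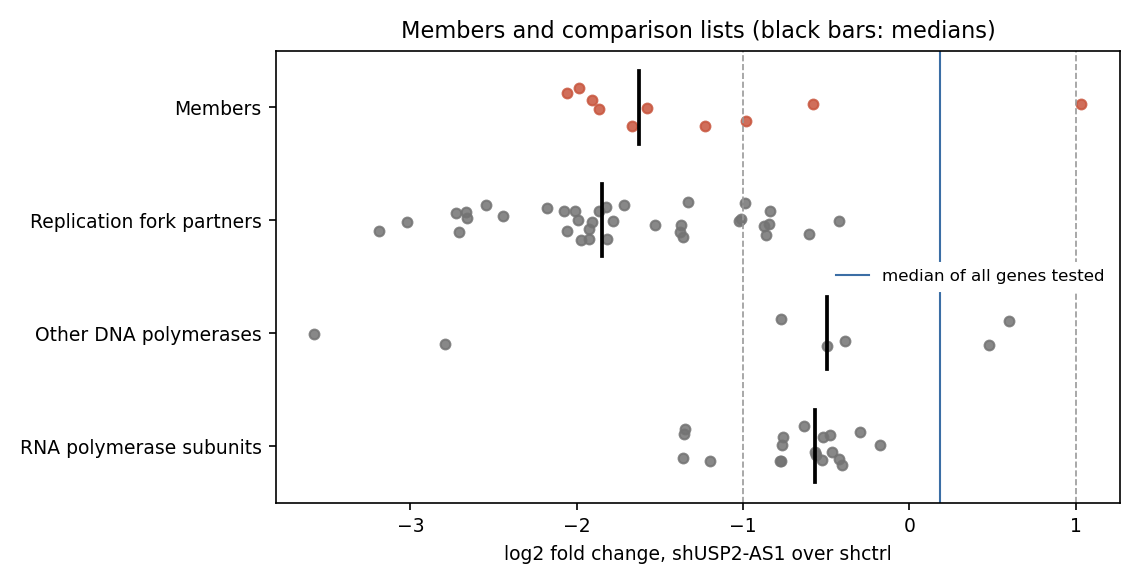
Log2 fold change of shUSP2-AS1 over shctrl for the 10 genes (red) and for the tested genes of the 3 comparison lists (grey), the second of which includes POLRMT, with black bars at the medians of -1.62, -1.85, -0.49 and -0.57 from top to bottom. The blue line marks the median of all genes tested, 0.19, which lies near 0, where the table holds few genes. The dashed lines mark -1 and 1, and points are spread vertically for legibility only.

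The genes whose 4 library values most resembled the median profile of the 10 genes were sought among 6035 others with a mean value of at least 100, by the Euclidean distance between log2 values centred on each gene's mean. The closest were DEPDC1B (distance 0.047), ZFYVE9 (0.047), RAD18 (0.055), NNMT (0.061) and HMGN1 (0.062), with log2 fold changes between -1.67 and -1.59. The median profile was computed from the 10 genes themselves, so their own distances to it are not an independent measure of likeness. POLA1 and POLA2 were at 0.066 each, an equality set by the median of 10 genes being the midpoint of the middle 2. Of the 10 genes POLD4 was farthest, at 2.66. Over only 4 libraries in 2 groups, this distance mainly compares the size of the change.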

How the data were processed

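Libraries were prepared from poly(A)-selected RNA of A549 cells. Per the labels, the authors aligned reads to hg38 with HISAT2 (version 2.0.5), counted them per gene with featureCounts (version 1.5.0-p3) and compared groups with DESeq2 (version 1.20.0). Whether counting used strand is not given in the sources used here. For each library the authors deposited a normalized signal (reads of a gene over the size factor of the library) together with gene length and their own fold changes and p-values. The deposited adjusted p-value was read only to establish that all 6828 genes passed 0.05, and the fold changes were not used. Columns were assigned to samples by the scr and sh216 names, the table heading and the replicate number.

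Values of log2(value + 1) were fitted with limma (version 3.58.1, R version 4.3.3) for genes with a mean of at least 10, with Benjamini-Hochberg adjustment. On this scale, changes of weakly expressed genes come out too small. Reads were recovered by dividing by the value of 1 read (100% whole within 0.01) and, as alternatives, entered into DESeq2 (version 1.42.0) and edgeR (version 4.0.16). Replicates varied beyond counting noise, with a chi-square per degree of freedom of 3.75 in shctrl and 3.84 in shUSP2-AS1. Genes were matched to GENCODE release 44 by identifier. Of the 6717 that matched, 6705 overlapped their GENCODE gene on the same strand. The fits were run on simulated counts in which few genes changed. Since every gene listed here had been selected as changed, that run does not show how the fits behave on this table.

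The 10 genes and the comparison lists were chosen with earlier results of these data known. Genes named from a list are those with the 3 lowest and 3 highest log2 fold changes, and further list genes (POLE3, DSCC1, CHTF18, POLDIP2, POLDIP3, PCNA and POLRMT) were named after their values were seen. The replicate number was used as a block only as an alternative.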

Additional observations from a re-analysis of the deposited data

How the results depend on the processing

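The count of 7 genes called lower and the direction of all 10 genes were kept within 1.5 times and without reversal under every alternative: RLE, TMM and upper quartile scaling, a pseudocount of 0.1, no filter or at least 10 in every library, edgeR, DESeq2, the replicate block, no fold change threshold, a test against a fold change of 2, adjustment as if 60000 genes had been tested, and each library left out. DESeq2 run on the authors' scaling and the canonical transcript length were chosen after seeing the data. The single call of a higher gene, POLD4, was lost (0 called) with RLE scaling, with DESeq2 and its own size factors and with the test against a fold change of 2, and ranged from 0 to 1 when libraries were left out. POLD3 was called with RLE scaling (-1.10) and DESeq2 (-1.10). With no fold change threshold, other DNA polymerases had 5 called lower and 2 higher, and RNA polymerase subunits 19 lower. Of all genes tested, 49.4% were then called lower. The test against a fold change of 2 left 2 RNA polymerase subunits, and 523 lower and 541 higher of all genes tested, in place of 922 and 1098. When the replicate number entered the fit as a block, 7 genes were called lower and 1 higher, and no call among the 10 changed. Deviations of same-numbered libraries had a correlation of -0.04 across genes, and the numbers were not taken to pair them. With the canonical transcript length in place of gene length, the span of levels per kilobase was 36.3-fold in shctrl and 78.1-fold in shUSP2-AS1. In shctrl, POLD4 and PRIM1 then came before POLA1, and PRIM2 before POLE2. In shUSP2-AS1, POLE then came before POLD3 and POLA1, and PRIM2 lay apart from PRIM1. Within 100 bases before the start, the E2F motif was found in 3 of the genes, all but POLA1. Genes with few reads, such as POLE2 and POLA2, had limma standard errors about 3 times those of POLE. DESeq2 with its own size factors gave larger standard errors than limma for each of the 10 genes. They were 0.12 against 0.08 for POLA1 and 0.27 against 0.18 for POLA2. The limma standard errors and intervals given above may therefore be too narrow.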
